A study of Homo sapiens with 12 samples.

Results

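The 10 genes described here carry iron into the cell, store it, let it out and sense its level. They were chosen by symbol: TF, TFRC, TFR2 and SLC11A2 for uptake, FTH1 and FTL for storage, SLC40A1 and HAMP for export and its control, and IREB2 and ACO1 for sensing. Each symbol matched 1 row of a count table of 63677 genes, and all 10 had enough reads to be tested among the 17092 genes that reached 10 counts in 3 or more samples. HAMP met that minimum in only 4 samples, 3 of them GO-Rg3-DOX, so its inclusion rested on the group where its level was highest.

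RNA was sequenced from Huh7 cells, a human hepatocellular carcinoma line, in 4 groups of 3 samples. All cells were grown for 24 h before treatment. The untreated group received medium only. The others were exposed for 6 h to graphene oxide sheets (GO) at 400 µg/mL, to GO loaded with the ginseng saponin ginsenoside Rg3 (GO-Rg3) at 400 µg/mL, or to GO carrying Rg3 and the anthracycline doxorubicin (GO-Rg3-DOX) at 100 µg/mL. The study asked how the carrier, its Rg3 coating and its drug load affect the cells. GO-Rg3-DOX was given at another dose than GO and GO-Rg3, so its values are set beside theirs without a test. No free-doxorubicin group was analysed here, and the part of doxorubicin cannot be told apart from that of the loaded carrier as a whole. The sources do not say that the 3 samples of a group came from separate cultures, so the p-values measure the spread between these samples, which may be technical.

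Liver cells make transferrin, the plasma iron carrier encoded by TF. Iron-loaded transferrin enters cells through transferrin receptor 1 (TFRC), while transferrin receptor 2 (TFR2) is a hepatocyte receptor that takes part in setting the level of hepcidin, the liver hormone encoded by HAMP. Iron leaves the endosome through DMT1 (SLC11A2), is stored in cages of ferritin heavy (FTH1) and light (FTL) chains, and leaves the cell through ferroportin (SLC40A1), which hepcidin blocks and sends for degradation. The iron regulatory proteins IRP1 (ACO1) and IRP2 (IREB2) bind hairpins called iron-responsive elements (IREs) in mRNAs when iron is scarce. Binding in a 5′ UTR blocks translation, and binding in the 3′ UTR of TFRC protects the mRNA from decay, so among these genes mRNA levels report on part of the control only.

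The hairpins that tie TFRC, the ferritins and ferroportin to the sensors can be seen in the transcripts themselves. A search of the UTRs of the canonical transcript of each gene was made on the transcript strand. The pattern was a C, then 5 bases, the loop CAGTGN and 5 bases that pair with the first 5, G-T pairs allowed. This search found 4 hairpins in the 3′ UTR of TFRC and 1 in the 5′ UTR of each of FTL, FTH1 and SLC40A1. They are shown 5′ to 3′ as 29 bases, with the loop in capitals, so that the shared loop and the near identity of the ferritin elements can be read (GRCh37, GENCODE annotation lifted to that build). The TFRC, FTH1 and SLC40A1 genes lie on the minus strand and FTL on the plus strand. The elements are at chr3:195777850-195777878, chr3:195777446-195777474, chr3:195777381-195777409 and chr3:195777334-195777362 for TFRC, in transcript order. Those of FTL, FTH1 and SLC40A1 are at chr19:49468592-49468620, chr11:61735046-61735074 and chr2:190445387-190445415.
TFRC 3′ UTR, element 1: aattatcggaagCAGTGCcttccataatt
TFRC 3′ UTR, element 2: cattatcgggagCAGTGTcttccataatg
TFRC 3′ UTR, element 3: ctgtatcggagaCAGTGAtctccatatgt
TFRC 3′ UTR, element 4: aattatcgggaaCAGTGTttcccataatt
FTL 5′ UTR: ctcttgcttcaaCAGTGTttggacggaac
FTH1 5′ UTR: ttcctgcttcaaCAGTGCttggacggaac
SLC40A1 5′ UTR: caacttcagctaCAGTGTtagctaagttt

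The same letters matched 0.0973% of 18505 annotated 5′ UTRs and 0.636% of 19031 3′ UTRs, 1 of them in the 3′ UTR annotated for TF. These letters were not found in the UTRs of the canonical transcripts of TFR2, SLC11A2, HAMP, IREB2 and ACO1. Coding sequences, other transcripts of these genes and hairpins of a looser pattern were not searched, so an IRE there would be missed. A match is a description of the sequence and says nothing of binding in these cells.

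The 12 libraries held 27802871 to 38877420 counts. The cells carried their line's identity, since all 9 hepatocyte and hepatoma markers examined were above 1 CPM in every sample (115 to 16533 CPM), while all 7 markers of blood, endothelial and stromal cells lay between 0 and 0.79 CPM. The summed level of the 9 hepatocyte markers moved with the groups, from 21522 to 21719 CPM in untreated cells to 13381 to 16353 with GO, 16591 to 20020 with GO-Rg3 and 28134 to 33259 with GO-Rg3-DOX. AFP and ALB held most of that sum, and single markers, named here after their values were seen, ran the other way: HNF4A had 351.67 to 378.03 CPM untreated, 545.11 to 573.51 with GO and 157.82 to 209.20 with GO-Rg3-DOX, and SERPINA1 went from 1543.7 to 1611.1 untreated to 1839.2 to 2342.4 with GO. Mitochondrially encoded genes took 5.31 to 6.28% of the counts in untreated cells, 12.1 to 24.1% with GO, 6.89 to 7.42% with GO-Rg3 and 12.8 to 19.4% with GO-Rg3-DOX. GO replicate 1 (24.1%) and GO-Rg3-DOX replicate 1 (19.4%) stood apart in their groups, and GO-Rg3 replicate 2 leaned most toward transcripts of low GC content (Spearman correlation of its deviation from the all-sample mean with GC of -0.63, across genes). RNA integrity, which the study lists per sample without replicate numbers, was not set beside these values. In bulk RNA, fewer cells that express a gene and less of its RNA per cell cannot be told apart.

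In untreated cells FTL was by far the most abundant of these mRNAs per length. Its level was 4743.6 ± 165 RPKM (mean ± SD, n = 3, TMM-scaled and per kilobase of annotated exon), against 94.9 ± 1.39 for TF. FTH1 had 56.3 ± 13.1 RPKM and TFRC 41.2 ± 0.63, which differ by little more than 1 SD of FTH1. The level of FTH1, and so its place beside FTL and TFRC, is uncertain. Its reads could be split among near-identical copies of the gene or left out by the counting. SLC40A1 (18.2 ± 0.428), IREB2 (14.6 ± 0.348), TFR2 (13.7 ± 0.974) and ACO1 (12.2 ± 0.189) followed, and IREB2 and TFR2 did not differ beyond their spread. SLC11A2 had 4.91 ± 0.122 RPKM and HAMP 0.0577 ± 0.0213. The order in the middle depends on the length used. Per kilobase of the canonical transcript, a length chosen after the values were seen, TFRC (143 ± 2.18 RPKM) lay above TF (123 ± 1.8). By that length FTH1 had 93.8 ± 21.8, and IREB2 (24.9 ± 0.594) lay above SLC40A1 (23.1 ± 0.543). The lengths annotated for TF, 26038 bases of exon and 20166 bases of canonical transcript, were the longest of these genes. Before division by length TF had 2471.5 ± 36.2 CPM and TFRC 716.21 ± 10.9. Which TF transcripts these cells make was not examined. A transcript shorter than annotated would put TF higher per length, so its RPKM and its place beside TFRC are uncertain.

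**Figure D1:**
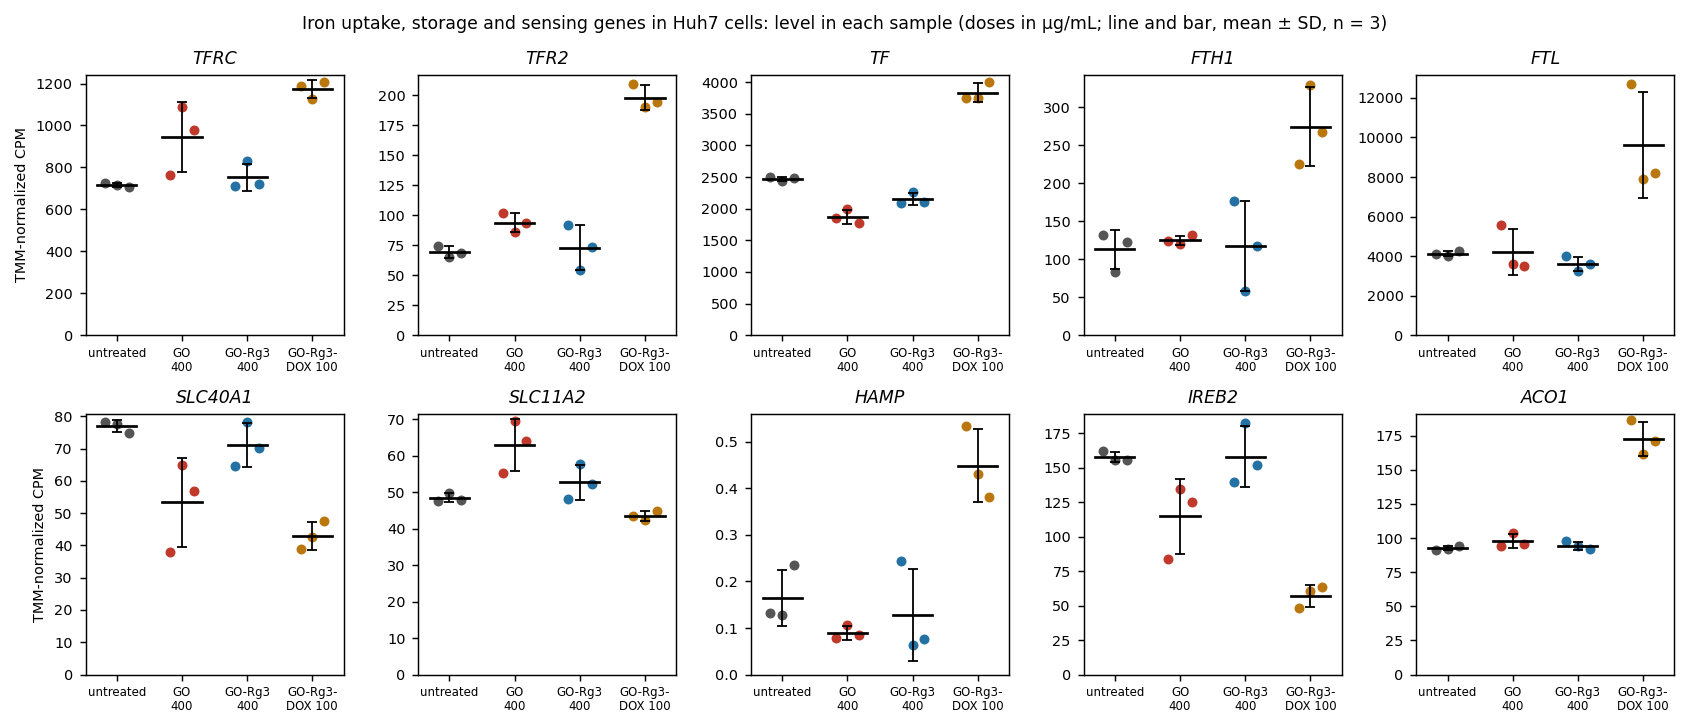
TMM-normalized CPM (y axis, from 0, its own scale in each panel) of the 10 iron genes in each of the 12 samples, by group (x axis, doses in µg/mL). Points are samples and the line and bar are mean ± SD (n = 3). In the GO-Rg3-DOX samples TF, TFRC, TFR2, FTH1, FTL, ACO1 and HAMP sit above every untreated sample. IREB2, SLC40A1 and SLC11A2 sit below every untreated sample. HAMP and SLC11A2 had an adjusted p above 0.01. HAMP entered the fit through the GO-Rg3-DOX group. The share of all genes with groups so separated was not counted, so such separation, here and in the text, is a description only.

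More of these genes passed the test after GO-Rg3-DOX than in any other comparison, and so did more of all genes. Compared with untreated cells, 6 of the 10 were higher at an adjusted p below 0.01 (TFR2, FTH1, FTL, ACO1, TFRC and TF), where 25.5% of all genes tested were higher, and 2 were lower (IREB2 and SLC40A1), where 30.5% of all genes were. With the further demand of an absolute log2 fold change above 1, 4 of the 10 were called, TFR2, FTH1 and FTL higher and IREB2 lower. This is not far from the 30.8% of all genes called in either direction. Whether the 10 differ from all genes was not tested. The median log2 fold change of the 10 was 0.81, against -0.056 for all genes. It includes HAMP (1.38), which entered the fit through the GO-Rg3-DOX group, so this median is a description only. The p-values come from the quasi-likelihood test of edgeR, adjusted by Benjamini-Hochberg across every gene tested, and DESeq2 also put 8 of the 10 past the threshold.

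After GO alone, 1 gene was higher (SLC11A2) and 1 lower (TF), beside 12.1% and 15.4% of all genes, and 0 were called, beside 6.47%. At an unadjusted p below 0.05 there were 6, and DESeq2 put 4 past the threshold. After GO-Rg3, 0 genes were higher (0.0585% of all genes) and 0 lower (0.105%), and 0 were called (0.0585%), with 1 gene at an unadjusted p below 0.05 and 0 past the threshold by DESeq2. Between GO-Rg3 and GO at the same dose, 0 were higher (7.34% of all genes), 0 lower (6.25%) and 0 called (2.77%), with 6 at an unadjusted p below 0.05 and 0 by DESeq2. The 3 comparisons with untreated cells share those control samples, and the log2 fold change of the 10 genes had a median of 0.056 for GO, 0.017 for GO-Rg3 and -0.069 for GO-Rg3 against GO, beside 0.0084, -0.0011 and -0.023 over all genes.

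**Figure D2:**
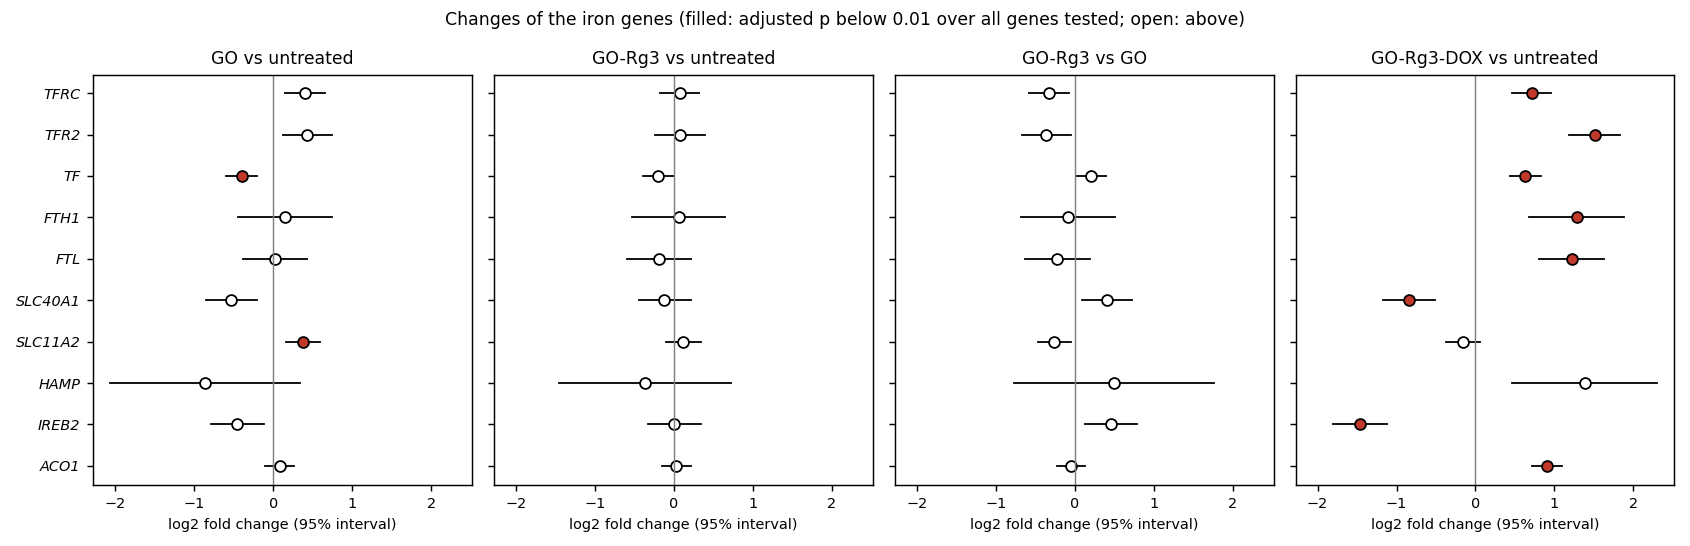
Log2 fold change (x axis, with its 95% interval) of each iron gene (y axis) in the 4 comparisons, one panel each. Filled points have an adjusted p below 0.01: 2 genes in GO against untreated, none of the 10 in the panels with GO-Rg3, and 8 in GO-Rg3-DOX against untreated.

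Transferrin itself was lower after GO and higher after GO-Rg3-DOX. TF (chr3:133464884-133515485, plus strand) had 2494.8, 2429.8 and 2489.8 CPM in the untreated samples and 1849.8, 1991.4 and 1766.2 CPM after GO. It had 2087.0, 2270.7 and 2104.6 CPM after GO-Rg3 and 3754.3, 3743.6 and 4007.4 CPM after GO-Rg3-DOX. The 4 groups did not overlap: every GO sample lay below every GO-Rg3 sample, and all of these below the untreated samples. The log2 fold change was -0.40 after GO (SE 0.09, adjusted p = 0.00255) and 0.63 after GO-Rg3-DOX (SE 0.09, adjusted p = 1.81e-05). For GO-Rg3 it was -0.20 against untreated cells (95% interval -0.39 to -0.0055, adjusted p = 0.353) and 0.20 against GO (interval 0.012 to 0.40, adjusted p = 0.105), neither past the threshold. The fall after GO no longer passed without untreated replicate 1 (adjusted p = 0.0138), replicate 2 (0.0107) or replicate 3 (0.0144), without GO replicate 3 (0.0179), and with an offset for GC content (-0.19, adjusted p = 0.0782). Exons annotated for TF overlap those of SRPRB and of a noncoding gene on the same strand, so some of its reads could belong to them. The part of the hepatocyte markers, which did not all move one way, in the TF values was not tested.

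The main transferrin receptor was higher after GO-Rg3-DOX. TFRC (chr3:195739382-195809024, minus strand) had 727, 716 and 705 CPM in untreated samples and 1188.9, 1124.6 and 1206.3 CPM after GO-Rg3-DOX, which lay above every other sample. The log2 fold change was 0.71 (SE 0.12, adjusted p = 7.56e-05). After GO the samples had 764, 1090.3 and 980 CPM, all above the untreated ones, with replicate 1 closest to them. That log2 fold change of 0.40 (95% interval 0.15 to 0.65) missed the threshold with an adjusted p of 0.0133. It passed without GO replicate 1 (0.53, adjusted p = 0.0004), with the GC offset (0.64, adjusted p = 1.79e-05) and by DESeq2 (0.42, adjusted p = 0.00329), and was 0.29 without GO replicate 2 (adjusted p = 0.067) and 0.30 with library totals (adjusted p = 0.135). GO-Rg3 samples had 711, 829 and 719 CPM and overlapped both the untreated and the GO samples, and the log2 fold changes of 0.072 against untreated cells (interval -0.18 to 0.32) and -0.33 against GO (interval -0.58 to -0.077, adjusted p = 0.0502) did not pass. Against GO it passed without GO replicate 1 (-0.46, adjusted p = 0.00291) and with the GC offset (-0.53, adjusted p = 0.000179), and was -0.21 without GO replicate 2 (adjusted p = 0.194) and -0.20 with library totals (adjusted p = 0.369).

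TFR2 was higher after GO-Rg3-DOX. This hepatocyte receptor (chr7:100218039-100240402, minus strand) had 74.8, 65.1 and 68.7 CPM in untreated samples and 210, 190 and 194 CPM after GO-Rg3-DOX. The groups were far apart, with a fold of 2.85 and a log2 fold change of 1.51 (SE 0.15, adjusted p = 3.99e-07). GO samples had 102.1, 86.2 and 93.3 CPM, all above the untreated samples, with a log2 fold change of 0.43 (interval 0.12 to 0.74) that did not pass (adjusted p = 0.0275). GO-Rg3 samples were spread from 54 CPM in replicate 2 to 92.2 in replicate 1, with 73.2 in replicate 3, and overlapped both groups. Against GO the log2 fold change of -0.36 did not pass (adjusted p = 0.0814), though it did without GO-Rg3 replicate 1 (-0.56, adjusted p = 0.00492), and was -0.18 without GO-Rg3 replicate 2 (adjusted p = 0.281). TFR2 has a transcript rich in GC (61.7%), and with the GC offset its log2 fold change was 0.88 after GO-Rg3-DOX (adjusted p = 4.93e-09) and 0.068 after GO (adjusted p = 0.398). The value after GO passed with a block for replicate number (0.43, adjusted p = 0.00402) and without the filter on low counts (0.40, adjusted p = 0.00597). It also passed in a fit of only the 6 samples compared (0.44, adjusted p = 0.00417).

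DMT1, the endosomal iron transporter, was higher after GO and did not pass the threshold after GO-Rg3-DOX. SLC11A2 (chr12:51373184-51422349, minus strand) had 47.7, 49.9 and 47.9 CPM in untreated samples and 55.4, 69.5 and 64.2 CPM after GO. These groups did not overlap, and the log2 fold change was 0.38 (SE 0.10, adjusted p = 0.00775). The rise no longer passed without untreated replicate 1 (adjusted p = 0.0337), 2 (0.0224) or 3 (0.0328), without GO replicate 2 (0.0366) or 3 (0.0267), and with scaling by library totals (0.27, adjusted p = 0.153). The same was so without the filter on low counts (0.35, adjusted p = 0.0285) and in a fit of only the 6 samples compared (0.39, adjusted p = 0.0117). After GO-Rg3 the samples had 48.2, 57.7 and 52.3 CPM and overlapped the untreated ones (log2 fold change 0.12, interval -0.095 to 0.34). Against GO the value of -0.26 missed the threshold (adjusted p = 0.0706) and passed with the GC offset (-0.40, adjusted p = 0.000273). GO-Rg3-DOX samples had 43.4, 42.3 and 44.8 CPM, all below the untreated samples, with a log2 fold change of -0.16 (interval -0.37 to 0.059, adjusted p = 0.184). That value turned to 0.069 with the GC offset and reached -0.57 (adjusted p = 0.00239) with library totals.

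Both ferritin chains were higher after GO-Rg3-DOX and neither changed at the threshold after GO or GO-Rg3. FTL, the light chain (chr19:49468566-49470136, plus strand), had 4121.9, 3993.0 and 4280.1 CPM in untreated samples and 12698.1, 7916.1 and 8206.3 CPM after GO-Rg3-DOX. Every GO-Rg3-DOX sample lay above every other sample, and replicate 1, the library with the most mitochondrial counts in its group, lay highest. The log2 fold change was 1.22 (SE 0.19, adjusted p = 4.86e-05). Without replicate 1 it was 0.98 (adjusted p = 0.000244) and with the GC offset 0.86 (adjusted p = 0.000295), so it fell short of 1 while passing the test. GO samples had 5576.4, 3589.9 and 3480.4 CPM, with replicate 1 above and the other two below all untreated samples, and the log2 fold change of 0.029 (interval -0.38 to 0.43) became -0.22 without replicate 1. GO-Rg3 samples had 3994.0, 3272.8 and 3592.2 CPM, and the log2 fold change was -0.19 against untreated cells (interval -0.60 to 0.21) and -0.22 against GO (interval -0.63 to 0.19).

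FTH1, the heavy chain that oxidises iron for storage (chr11:61727190-61735106, minus strand), had 133, 83.1 and 123 CPM in untreated samples and 226, 330 and 268 CPM after GO-Rg3-DOX. The groups did not overlap, and the log2 fold change was 1.28 (SE 0.28, adjusted p = 0.000896). With library totals alone it was 0.88 and missed the threshold (adjusted p = 0.0138). GO samples had 124, 120 and 131 CPM, within the untreated range, for a log2 fold change of 0.15 (interval -0.44 to 0.74). GO-Rg3 samples had 177, 58.7 and 117.99 CPM, the widest spread of the 4 groups relative to the mean, and the log2 fold change of 0.061 (interval -0.53 to 0.65) was 0.38 without replicate 2 and -0.35 without replicate 1. The low value was measured in the library that leaned most toward low GC content, and with the GC offset the log2 fold change of GO-Rg3 was 0.068 (SE 0.27, against 0.28 without it). Against GO, GO-Rg3 had a log2 fold change of -0.086 (interval -0.68 to 0.51).

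FTH1 values are uncertain because the genome holds many near-identical processed copies of this gene, among which reads could be split or left out by the counting. The table had 29 rows of FTH1 pseudogenes, which took 5.53 to 13.3% of the counts of FTH1 and its copies together, and 16 rows of FTL pseudogenes, which took 0.0506 to 0.078%. FTH1P20 had 3.91 ± 0.0982 CPM in untreated cells and 11.7 ± 3.76 after GO-Rg3-DOX, and FTLP3 had 2.08 ± 0.398 and 4.28 ± 1.01 CPM. With the copies added to their parent genes, the log2 fold changes after GO-Rg3-DOX were 1.30 for FTH1 (adjusted p = 0.000512) and 1.22 for FTL (adjusted p = 4.86e-05). FTH1 also overlaps exons of BEST1 on the opposite strand, whose reads could be mixed in if strand was not used in counting, and an antisense noncoding gene lies over TFRC in the same way.

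Ferroportin, the iron exporter, was lower after GO-Rg3-DOX. SLC40A1 (chr2:190425316-190448484, minus strand) had 78.3, 77.6 and 74.9 CPM in untreated samples and 38.8, 42.5 and 47.6 CPM after GO-Rg3-DOX. The groups did not overlap, and the log2 fold change was -0.84 (SE 0.15, adjusted p = 0.000183). With the GC offset it was -0.54 (adjusted p = 0.000263). GO samples had 38.1, 64.9 and 57 CPM, all below the untreated ones, with replicate 1 lowest, and the log2 fold change of -0.53 (interval -0.85 to -0.20) missed the threshold (adjusted p = 0.0119). It was -0.33 without replicate 1 (adjusted p = 0.0233) and passed without replicate 2 (-0.69, adjusted p = 0.00279) and by DESeq2 (-0.50, adjusted p = 0.00748). GO-Rg3 samples had 64.6, 78.3 and 70.2 CPM, overlapping both the untreated and the GO samples, with a log2 fold change of -0.12 against untreated cells (interval -0.44 to 0.21) and 0.41 against GO (interval 0.087 to 0.73, adjusted p = 0.0564). Under other settings with all samples kept, the value against GO ran from 0.23 to 0.54 (adjusted p from 0.00723 to 0.164). It passed in no fit that left out a sample.

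Hepcidin mRNA was barely present in any sample. HAMP (chr19:35771619-35776046, plus strand) had 5, 4 and 10 counts in the untreated libraries, 2, 4 and 3 with GO, 9, 2 and 3 with GO-Rg3 and 13, 12 and 10 with GO-Rg3-DOX. In CPM the GO-Rg3-DOX samples (0.535, 0.431 and 0.381) lay above every other sample, of which the highest was 0.243. The log2 fold change of GO-Rg3-DOX against untreated cells was 1.38 (95% interval 0.46 to 2.30), did not pass, and was 0.97 with the GC offset. It is given as a description only, since HAMP entered the fit through that group. After GO it was -0.86 (interval -2.06 to 0.34) and after GO-Rg3 -0.37 (interval -1.46 to 0.72), which at these counts leaves changes of either sign within the interval. Between GO-Rg3 and GO it was 0.50 (interval -0.77 to 1.76). Reads were not tagged with molecular identifiers and so are not independent molecules. The intervals come from the edgeR fit and rest on its estimate of the spread between samples as well as on counting error.

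The 2 IRE-binding sensors moved in opposite directions after GO-Rg3-DOX. IREB2, which encodes IRP2 (chr15:78729773-78793795, plus strand), had 162, 156 and 155 CPM in untreated samples and 48.1, 60.3 and 63.3 CPM after GO-Rg3-DOX. The groups were far apart, with a fold of 0.363 and a log2 fold change of -1.46 (SE 0.16, adjusted p = 1.15e-06). With the GC offset, which bears on a transcript of 38.2% GC, it was -1.01 (adjusted p = 8.58e-08). GO samples had 84.1, 135 and 125.5 CPM, all below the untreated samples and lowest in replicate 1, and the log2 fold change of -0.46 (interval -0.79 to -0.12) did not pass (adjusted p = 0.0282). It was -0.27 without replicate 1 and -0.15 with the GC offset. It passed with a block for replicate number (-0.49, adjusted p = 0.00367) and without the filter on low counts (-0.48, adjusted p = 0.000596). GO-Rg3 samples had 140, 182 and 152 CPM on both sides of the untreated range, with a log2 fold change of 0.0042 (interval -0.33 to 0.34). They lay above every GO sample, by a log2 fold change of 0.46 (interval 0.13 to 0.79, adjusted p = 0.0396) that did not pass. Under other settings with all samples kept, that value ran from 0.18 to 0.59 (adjusted p from 0.00117 to 0.136). It passed in no fit that left out a sample.

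ACO1, which encodes IRP1, a protein that serves as cytosolic aconitase when it holds an iron-sulfur cluster (chr9:32384601-32454767, plus strand), had 91.5, 91.8 and 94.1 CPM in untreated samples. GO-Rg3-DOX samples had 186, 162 and 171 CPM, well above every other sample, with a log2 fold change of 0.90 (SE 0.09, adjusted p = 2.72e-07). With the GC offset it was 1.01 (adjusted p = 7.10e-09). GO samples had 94.4, 103.5 and 95.8 CPM, slightly above the untreated ones, and GO-Rg3 samples had 97.5, 94.2 and 91.6 CPM, within or just above them. The log2 fold changes were 0.083 (interval -0.099 to 0.26) and 0.031 (interval -0.15 to 0.21), so at this precision a change of ACO1 as large as that after GO-Rg3-DOX lies outside both intervals. Between GO-Rg3 and GO the value was -0.052 (interval -0.23 to 0.13).

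Ratios within a library do not depend on how libraries are scaled against each other. The ratio of ACO1 to IREB2 counts was 0.565, 0.59 and 0.606 in untreated samples and 3.87, 2.68 and 2.7 after GO-Rg3-DOX. GO samples lay between at 1.12, 0.767 and 0.764, all above the untreated ones, and GO-Rg3 samples at 0.698, 0.517 and 0.602 overlapped them. The TFRC to TFR2 ratio was 9.72, 11 and 10.3 in untreated samples and 5.67, 5.91 and 6.2 after GO-Rg3-DOX with no overlap. GO-Rg3-DOX also had the lowest mean TFRC to FTL ratio (0.0936, 0.142 and 0.147, against 0.176, 0.179 and 0.165 in untreated samples), although GO replicate 1 lay among its values at 0.137. Both of these falls depend on GC content. Without the GC offset, log2 fold changes after GO-Rg3-DOX were 0.71 for TFRC, 1.51 for TFR2 and 1.22 for FTL. With it they were 1.05, 0.88 and 0.86, so TFRC no longer rose less than TFR2 or FTL. ACO1 (1.01) and IREB2 (-1.01) kept opposite signs with the offset. FTL to FTH1 showed no order among groups, with means of 38 ± 8.93 in untreated samples, 33.8 ± 9.81 with GO, 36.3 ± 17.3 with GO-Rg3 and 36.9 ± 17 with GO-Rg3-DOX, and TFRC to FTH1 had 6.61 ± 1.74, 7.58 ± 1.48, 8.08 ± 5.34 and 4.39 ± 0.93. The ratios of ACO1 to IREB2, TFRC to TFR2 and TFRC to FTL were chosen after their values were seen and carry no test.

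**Figure D3:**
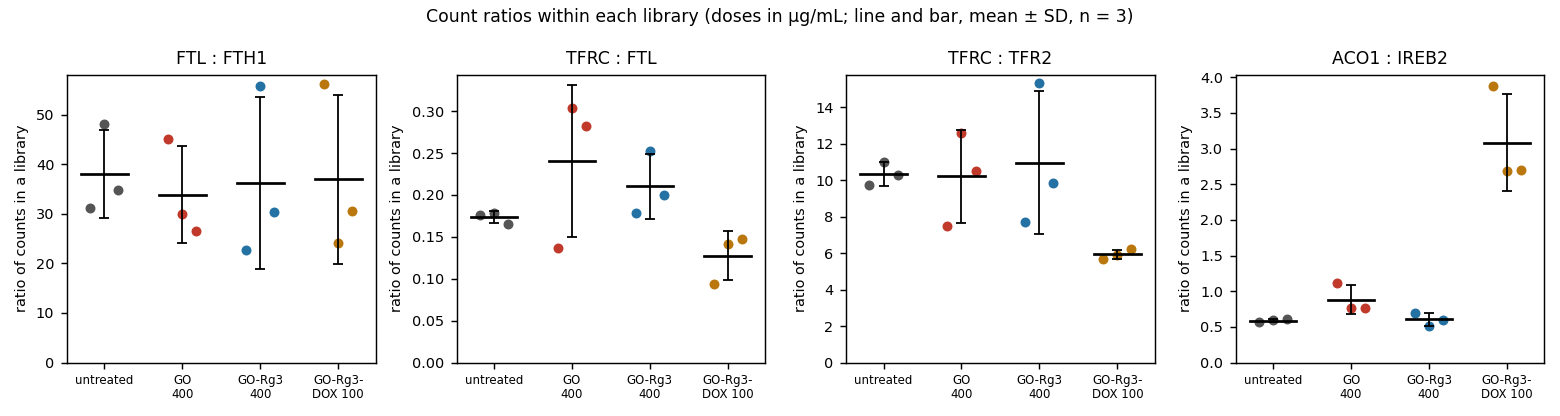
Ratio of counts of 2 iron genes within each library (y axis, from 0) by group (x axis, doses in µg/mL), with points for samples and lines and bars for mean ± SD (n = 3). ACO1 to IREB2 lies between 2.68 and 3.87 in the GO-Rg3-DOX samples against 0.565 to 0.606 in untreated ones, while FTL to FTH1 overlaps in all 4 groups.

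The choice of scaling and GC content bear on the GO-Rg3-DOX values as a whole. With library totals alone, the all-gene median was -0.47, and relative to that scale TFRC (0.29, adjusted p = 0.0973), TF (0.22, adjusted p = 0.0864) and FTH1 (0.88, adjusted p = 0.0138) no longer passed, while TFR2, FTL, ACO1, IREB2 and SLC40A1 did. Log2 fold changes followed the GC content of transcripts (Spearman correlation 0.37 over 16622 genes, which are not independent, and 0.438 for GO), and with an offset for it the same 8 genes passed in the same directions, TFRC at 1.05 and TF at 0.92. Leaving out any 1 of the 6 samples kept all 8 past the threshold.

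Genes whose group means followed those of TFRC most closely, of 13240 genes of at least 1 CPM, were SV2A, GRAMD1A and GGT7. Their 4 centred mean log2 levels lay within a root mean square difference of 0.005, 0.007 and 0.010 of TFRC, which had -0.29 untreated, 0.09 with GO, -0.22 with GO-Rg3 and 0.42 with GO-Rg3-DOX. CERCAM, GNAS and CLU were nearest to FTH1 (0.024, 0.024 and 0.026), and DNAH2, AQP3 and MYLIP to HAMP (0.069, 0.087 and 0.090). With only 4 group means and so many genes, close neighbours are easily found, and shared control of these genes was not tested. HAMP had 2 to 13 counts a library and entered the fit through the GO-Rg3-DOX group, so its neighbours are a description only.

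The wider set of iron and heme genes, 82 in 6 lists of which 75 could be tested, showed 25 higher and 22 lower after GO-Rg3-DOX and 10 higher and 20 lower after GO. Of all genes tested, 25.5% were higher and 30.5% lower after GO-Rg3-DOX, and 12.1% and 15.4% after GO, and the counts of each list are to be read against these shares. After GO-Rg3 0 were higher and 2 lower (0.0585% and 0.105% of all genes), and 6 were higher and 7 lower in GO-Rg3 than in GO (7.34% and 6.25%). No list was tested against the other genes. The comparisons against untreated cells share their controls. For NCOA4 and HFE2, which had 2 rows each, the row of higher mean level was used.

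**Figure D4:**
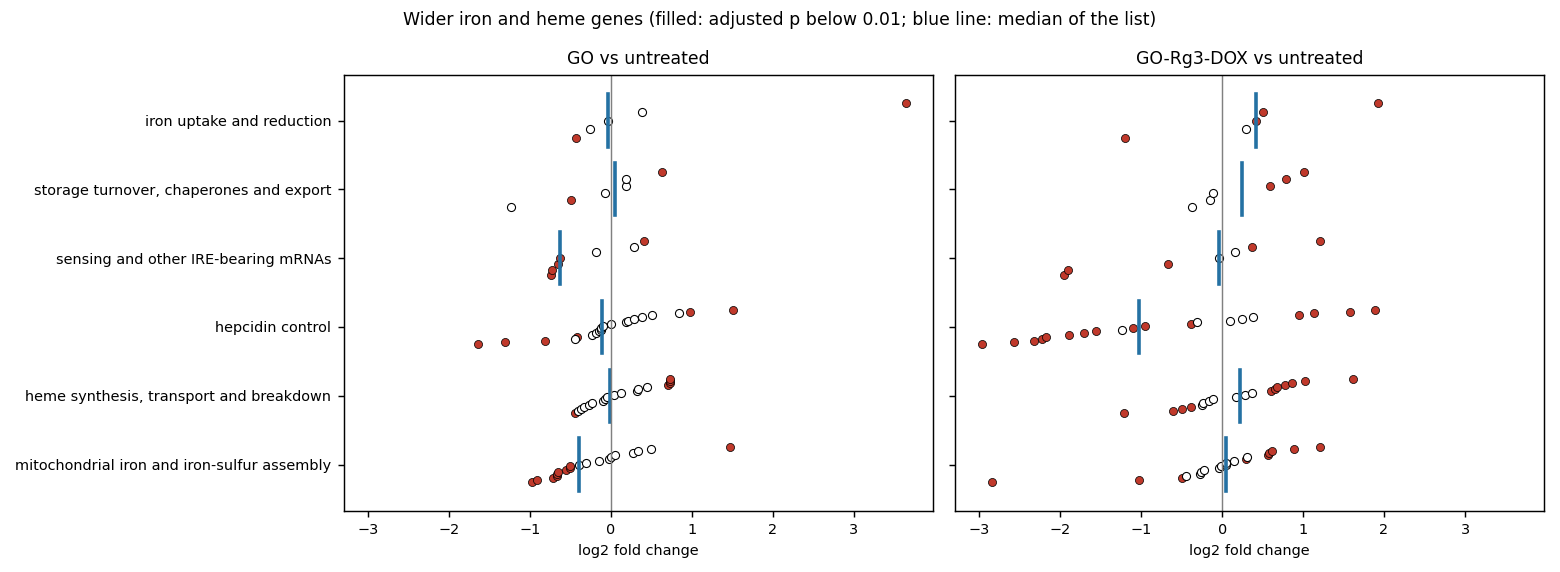
Log2 fold change (x axis) of the 75 tested genes of the 6 wider iron and heme lists (y axis) after GO and after GO-Rg3-DOX, each against untreated cells. Each point is a gene, filled where the adjusted p was below 0.01, and the blue line is the median of the list, lowest for the hepcidin control list after GO-Rg3-DOX at -1.03.

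Among 5 tested genes of iron uptake and reduction, 3 were higher and 1 lower after GO-Rg3-DOX (median log2 fold change 0.42, all genes -0.056, of which 25.5% and 30.5% passed). STEAP3, the endosomal reductase that readies iron for DMT1, had 30.1 ± 1.51 CPM untreated and 42.6 ± 4.43 after GO-Rg3-DOX (log2 fold change 0.50, adjusted p = 0.00208). The related reductase STEAP2 was lower (-1.20, adjusted p = 1.97e-05) and the metal importer SLC39A8 higher (0.42, adjusted p = 0.00123). After GO, 1 was higher and 1 lower (median -0.037, all genes 0.0084). SLC39A14, another importer of iron outside transferrin, had a log2 fold change of -0.43 (adjusted p = 0.00511), and LCN2, which binds iron-carrying siderophores, went from 0.208 ± 0.018 to 2.68 ± 1.04 CPM (3.65, adjusted p = 5.90e-06). GO-Rg3 had less LCN2 than GO (-1.74, adjusted p = 0.000858) and more SLC39A8 (0.59, adjusted p = 0.000597).

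Among 6 tested genes of ferritin turnover, iron chaperones and export, 3 were higher and 0 lower after GO-Rg3-DOX (median 0.24, beside -0.056 for all genes and shares of 25.5% and 30.5%). The ferroxidases CP (0.59, adjusted p = 0.00326) and HEPH (0.79, adjusted p = 1.93e-05), which act beside ferroportin, were higher where SLC40A1 was lower. PCBP2, a chaperone that hands iron to ferritin, had 207 ± 5.38 CPM untreated, 319 ± 91.6 after GO (0.63, adjusted p = 0.00925) and 415 ± 96.8 after GO-Rg3-DOX (1.01, adjusted p = 0.000114). NCOA4, the receptor that delivers ferritin for breakdown, was lower after GO (-0.49, adjusted p = 0.00442), where 1 of the 6 was higher and 1 lower (median 0.052, all genes 0.0084).

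FBXL5 and CUL1, parts of the ligase that marks IRPs for degradation, were lower after GO and after GO-Rg3-DOX. Of 7 tested genes of sensing and of other mRNAs with IREs, 2 were higher and 3 lower after GO-Rg3-DOX (median -0.045, all genes -0.056, of which 25.5% and 30.5% passed) and 1 higher and 4 lower after GO (median -0.63, all genes 0.0084, 12.1% and 15.4%). FBXL5, the iron-binding adaptor, had 25.9 ± 1 CPM untreated, 15.5 ± 2.92 after GO (-0.74, adjusted p = 0.00216) and 6.65 ± 1.67 after GO-Rg3-DOX (-1.96, adjusted p = 1.19e-07). CUL1, the scaffold, had 102.3 ± 0.415, 65.9 ± 8.53 (-0.63, adjusted p = 0.00038) and 27.2 ± 2.51 CPM (-1.91, adjusted p = 2.13e-09). SKP1, the linker of the ligase, named here after its values were seen, had a log2 fold change of -0.65 after GO (adjusted p = 0.000639) and of 0.16 after GO-Rg3-DOX (adjusted p = 0.245). GO-Rg3 had more CUL1 than GO (0.52, adjusted p = 0.00316). CDC14A was lower after GO (-0.73, adjusted p = 0.00255). EPAS1, which encodes HIF-2α, was higher after GO (0.41, adjusted p = 0.00238) and after GO-Rg3-DOX (0.37, adjusted p = 0.00234), the latter turning to -0.053 with library totals alone.

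Of 20 genes that control hepcidin, 4 were higher and 11 lower after GO-Rg3-DOX (median log2 fold change -1.03, beside -0.056 for all genes, of which 25.5% were higher and 30.5% lower). ID1, a target of BMP signalling, had 196 ± 15.7 CPM untreated, 79.2 ± 2.75 after GO (-1.31, adjusted p = 3.42e-06) and 25 ± 0.998 after GO-Rg3-DOX (-2.97, adjusted p = 1.72e-10), and BMPR1A, a BMP receptor, had a log2 fold change of -2.57 (adjusted p = 3.17e-09). TMPRSS6, a protease that restrains hepcidin, was higher at 13.3 ± 0.321 against 4.45 ± 0.352 CPM (1.58, adjusted p = 1.79e-06), as was FAM132B, the gene of erythroferrone (1.89, adjusted p = 9.92e-06). Other members are named after their values were seen. The inhibitory SMAD6 (-2.32, adjusted p = 9.79e-10) and SMAD7 (-2.23, adjusted p = 9.67e-10) were lower. HFE (0.95, adjusted p = 7.20e-05) and NEO1 (1.13, adjusted p = 6.55e-07) were higher. The joint bearing of these genes on hepcidin was not tested. After GO, 2 were higher and 4 lower (median -0.11, all genes 0.0084, 12.1% and 15.4%), with SMAD7, an inhibitory SMAD, at -1.64 (adjusted p = 1.99e-07), IL6R at 0.98 (adjusted p = 2.20e-05) and FAM132B at 1.51 (adjusted p = 0.000343). After GO-Rg3, 0 were higher and 1 lower, SMAD6 (-0.76, adjusted p = 0.00819). Against GO, GO-Rg3 had more SMAD7 (1.10, adjusted p = 1.85e-05) and ID1 (0.66, adjusted p = 0.00164) and less IL6R (-0.89, adjusted p = 0.00011) and FAM132B (-1.05, adjusted p = 0.00627).

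Of 18 heme genes, 7 were higher and 4 lower after GO-Rg3-DOX (median 0.22, all genes -0.056, of which 25.5% and 30.5% passed). HMOX1, the enzyme that releases iron from heme, had 82.7 ± 3.82 CPM untreated and 35.8 ± 4.94 after GO-Rg3-DOX (-1.21, adjusted p = 7.73e-07). HPX, the plasma heme carrier hemopexin, rose (1.02, adjusted p = 1.54e-06), as did its receptor LRP1 (1.61, adjusted p = 6.64e-08), while the transporter FLVCR2 fell (-0.61, adjusted p = 0.00617). After GO, 4 were higher and 1 lower (median -0.0088, all genes 0.0084, 12.1% and 15.4%), with PPOX of heme synthesis at 0.73 (adjusted p = 0.000229), FLVCR2 at 0.73 (adjusted p = 0.00235) and the heme transporter SLC48A1 at 0.70 (adjusted p = 0.00369). GO-Rg3 had less PPOX (-0.80, adjusted p = 0.000314), FLVCR2 (-0.77, adjusted p = 0.00345) and LRP1 (-0.52, adjusted p = 0.00917) than GO.

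Of 19 tested genes of mitochondrial iron and iron-sulfur assembly, 1 was higher and 9 lower after GO (median -0.40, all genes 0.0084, of which 12.1% and 15.4% passed), and 6 were higher and 3 lower after GO-Rg3-DOX (median 0.047, all genes -0.056, 25.5% and 30.5%). After GO, the scaffold ISCU (-0.50, adjusted p = 0.00427), the cochaperone HSCB (-0.98, adjusted p = 0.00099) and the late-acting BOLA3 (-0.92, adjusted p = 0.000166) were lower and IBA57 higher (1.47, adjusted p = 8.30e-06). After GO-Rg3-DOX, ISCA2 went from 8.18 ± 0.357 to 1.12 ± 0.429 CPM (-2.85, adjusted p = 3.86e-08) and ISCA1 was also lower (-1.03, adjusted p = 3.72e-07), while FDXR (1.21, adjusted p = 1.61e-05) and ABCB8 (0.89, adjusted p = 5.48e-05) were higher. After GO-Rg3, 0 were higher and 1 lower, BOLA3 (-1.02, adjusted p = 0.00527). GO-Rg3 had less IBA57 (-1.19, adjusted p = 0.000104) and more HSPA9 (0.41, adjusted p = 0.00408) than GO.

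A result is given as lost in a fit where its adjusted p was above 0.01, whatever its log2 fold change. The rule for named genes selected 56 results from these lists. Of these, 34 stayed past that threshold in every fit that left out 1 of the 6 samples. After GO-Rg3-DOX, 18 of 22 did, and the exceptions were STEAP3 (lost without untreated replicate 2 or GO-Rg3-DOX replicate 1), CP (untreated replicate 2 or 3 or GO-Rg3-DOX replicate 3), EPAS1 (untreated replicate 2 or 3) and FLVCR2 (any sample but GO-Rg3-DOX replicate 1). After GO, 10 of 20 did. Among the others, SLC39A14, NCOA4, PCBP2, ISCU and SLC48A1 were lost without any 1 untreated sample, and also without GO replicate 1 (PCBP2, SLC48A1), 2 (ISCU) or 3 (SLC39A14, NCOA4, PCBP2, ISCU). FBXL5 was lost without untreated replicate 3 (adjusted p = 0.0106) and CDC14A without replicate 2 (0.0107), EPAS1 without untreated replicate 2 or 3 or GO replicate 3, and FLVCR2 without untreated replicate 1 or 2 or GO replicate 2. Both results after GO-Rg3 were lost without any 1 of the 6 samples. Between GO-Rg3 and GO, 6 of 12 were kept, and ID1 was lost without GO-Rg3 replicate 3, CUL1 and HSPA9 without GO replicate 3 or GO-Rg3 replicate 2 or 3, FLVCR2 without GO replicate 2 or GO-Rg3 replicate 3, FAM132B without GO replicate 1 or 3 or GO-Rg3 replicate 2 or 3, and LRP1 without any sample but GO replicate 1.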

How the data were processed

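RNA of 12 Huh7 samples, 4 groups of 3, was sequenced by the authors from stranded mRNA libraries, and groups follow the sample labels. The deposited values are raw counts per Ensembl gene, which the authors made with the NGI-RNAseq pipeline and featureCounts on GRCh37. The aligner, the annotation release and the strand setting of the counting are not given in the sources used here. Free doxorubicin was not analysed here.

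The 17092 genes that reached 10 counts in 3 or more samples were fitted in 1 model of all 12 samples with edgeR 4.0.16 in R 4.3.3 (TMM scaling, quasi-likelihood test, Benjamini-Hochberg adjustment over all genes tested, no replicate block). The study used DESeq2. Passing means an adjusted p below 0.01, and a call also an absolute log2 fold change above 1. Levels are TMM-normalized CPM. Alternatives were RLE scaling, library totals, scaling without mitochondrially encoded genes, no or a stricter count filter, DESeq2 1.42.0, the replicate block, a loess offset for GC content (span 0.5, GC known for 97.3% of genes), a fit of the 6 samples alone, leaving out each sample in turn, thresholds of 0.05 and 0.0001, and ferritin pseudogenes added to their parents.

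The 10 members and the wider lists were chosen with earlier results of these data known. All members are named, and of each list the 2 highest and 2 lowest log2 fold changes among genes that passed with a mean of at least 1 CPM. Some of the genes this rule selected are not reported here, though they stay in the counts. The rule also named the 2 ferritin pseudogenes of highest level and, for TFRC, FTH1 and HAMP, the 3 genes nearest in group means. Positions, hairpins and lengths came from a GENCODE annotation lifted to GRCh37 and need not match the authors' release.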

Additional observations from a re-analysis of the deposited data

How the results depend on the processing

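Of 671 values of the 10 iron genes under other settings, 598 kept their direction and their side of the threshold, 17 no longer passed, 29 newly passed and 27 changed sign. None of the 8 genes past the threshold after GO-Rg3-DOX changed sign under any of these settings, and their count of 8 stayed within 1.5 times in each. The count of iron genes after GO, 2, was the least settled. It was 6 at an adjusted p below 0.05, 0 below 0.0001, 1 with library totals, 5 without a filter on low counts, 4 with DESeq2, and 0 to 3 when a sample was left out. Between GO-Rg3 and GO the count of 0 became 1 below 0.05, 2 without a filter, 2 with the GC offset, 2 with the GC offset and replicate block together, and 0 to 1 with a sample left out. The causes were not tested.

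The labels give every group the same replicate numbers and do not say what they stand for. Deviations of same-numbered samples correlated at 0.00628, 0.0598 and 0.000916 between GO and untreated cells, at 0.239, 0.173 and 0.0472 for GO-Rg3, at 0.0341, 0.0216 and -0.0239 for GO-Rg3-DOX, and at 0.204, 0.234 and 0.0315 between GO-Rg3 and GO. In no comparison did every pair exceed 0.1, and the main fit used no replicate block. Between GO-Rg3 and untreated cells, however, every sample correlated best with its own number. Each GO-Rg3 sample also correlated best with the GO sample of its own number. Whether same-numbered samples shared a culture or a batch was not tested. With the replicate block, 6 iron genes passed after GO, 0 after GO-Rg3, 8 after GO-Rg3-DOX and 1 between GO-Rg3 and GO.

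Of the values that changed sign, 1 belonged to a result past the threshold, EPAS1 after GO-Rg3-DOX, at -0.053 with library totals. After GO, FTL was -0.12 with library totals, -0.0004 without a filter, -0.011 with the replicate block, -0.20 with the GC offset, -0.22 with the GC offset and block, and -0.22 (without GO replicate 1) to 0.16 with a sample left out. ACO1 was -0.035 with library totals, and FTH1 ran from -0.032 (without untreated replicate 2) to 0.28 with a sample left out. After GO-Rg3, TFR2 was -0.041 with the GC offset, with or without the block, and with a sample left out ran from -0.13 (without GO-Rg3 replicate 1) to 0.25. With a sample left out, FTH1 ran from -0.35 (without GO-Rg3 replicate 1; -0.12 without untreated replicate 2) to 0.38, TFRC from -0.0025 (without GO-Rg3 replicate 2) to 0.11, and HAMP from -1.20 to 0.0024 (without untreated replicate 3). IREB2 was -0.0026 without a filter and -0.012 with the replicate block, and ran from -0.11 (without GO-Rg3 replicate 2; -0.0054 and -0.0063 without untreated replicate 2 or 3) to 0.086. After GO-Rg3-DOX, SLC11A2 was 0.069 with the GC offset, with or without the block. Between GO-Rg3 and GO, FTH1 was 0.059 and ACO1 0.093 with library totals. There, with a sample left out, FTH1 ran from -0.50 to 0.24 (without GO-Rg3 replicate 2), HAMP from -0.34 (without GO-Rg3 replicate 1) to 0.78, and FTL from -0.34 to 0.033 (without GO replicate 1).

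Of the wider iron genes, 30 passed after GO (6 at an adjusted p below 0.0001) and 47 after GO-Rg3-DOX (30 below 0.0001). The 2 after GO-Rg3 became 6 below 0.05, 0 below 0.0001, 1 with library totals, 6 without a filter, 4 with the replicate block, 5 with the GC offset, 5 with the GC offset and block, 6 with DESeq2, and 0 in each fit that left out a sample. The 13 between GO-Rg3 and GO became 24 below 0.05, 1 below 0.0001 and 5 in a fit of only the 6 samples, and 6 to 15 with a sample left out. Of 950 values of the genes that the rule for named genes selected from these lists, 836 still passed in the same direction, 113 no longer passed and 1 changed sign. Where a sample was left out, its group was fitted on the remaining pair with the spread shared over all groups.

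With library totals the median of all genes was -0.11 after GO, -0.47 after GO-Rg3-DOX and 0.12 between GO-Rg3 and GO, and the genes called overexpressed and under-expressed went from 657 and 448 to 476 and 695 after GO, from 2159 and 3103 to 1028 and 4940 after GO-Rg3-DOX, and from 120 and 353 to 220 and 231 between GO-Rg3 and GO. After GO-Rg3 they went from 2 and 8 to 5 and 32 with DESeq2, to 11 and 52 without a filter and to 4 and 19 with the GC offset. With 3 samples a group and these depths, HAMP at 2 to 13 counts a library had the widest intervals of the 10 genes.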
